A study of Mus musculus with 16 samples.

Results

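The DNA replication licensing and fork genes are 45 genes of 48709 in the RNA tables, chosen by symbol for their known roles in copying the genome. They comprise 9 origin licensing genes, 12 genes of the replicative helicase and its loading, 5 genes of the firing kinases and cyclins, 14 genes of the polymerases, clamp and clamp loader, 3 genes of nucleotide supply and 2 genes of chromatin assembly. All 45 were found, and all 45 passed the filter on low counts that 15982 genes passed. The study measured mouse cochlear progenitors that give rise to the organ of Corti, the sensory epithelium of hearing, in 16 libraries. Cells were sorted by FACS as Sox2-GFP+ at E12.0 (embryonic days after conception) and as p27-GFP+ at E13.5. RNA was sequenced from 2 libraries at each stage, open chromatin (ATAC) from 3 at each stage, the histone mark H3K27ac by CUT&RUN from 2 at each stage, and Tead binding by CUT&RUN from 2 at E12.0 only. Age and sorting reporter change together between the stages and cannot be told apart. The p27 reporter follows Cdkn1b, the gene of an inhibitor of cyclin-dependent kinases, so the E13.5 gate itself bears on the cell cycle. The labels do not give strain, the structure of either reporter allele, or how many embryos or litters entered a library, and p-values therefore measure the spread between libraries, which may be technical.

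A chromosome is copied from many origins, and each origin is used once per cell cycle. In G1 the origin recognition complex, Cdc6 and Cdt1 load a ring of Mcm2 to Mcm7 onto DNA, which is called licensing, and Geminin (Gmnn) later blocks Cdt1 so that no origin is licensed again. At the start of S phase the kinases Cdc7-Dbf4 and cyclin E-Cdk2 recruit Cdc45 and the GINS complex to the ring and switch it into a moving helicase. Primase and polymerase alpha then lay down primers, the loader Rfc places the sliding clamp Pcna, polymerases epsilon and delta copy the strands, Fen1 and Lig1 join the pieces, and Chaf1a and Chaf1b bring histones to the new DNA. Many of these genes are textbook targets of the E2F transcription factors. In the cochlea the prosensory progenitors stop dividing in the days around these stages.

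The E12.0 RNA libraries summed to 9412326 and 9810603 expected counts, those of E13.5 to 17057751 and 19570946. The mitochondrial ribosomal RNA mt-Rnr2 took 13.2% to 16.99% of counts at E12.0 and 0.180% to 0.295% at E13.5. The length tables place the median gap between length and effective length, a measure related to fragment size, at 141 and 146 bases at E12.0, then 188 and 189 at E13.5. Of 8 prosensory markers, 5 rose and 1 fell, and Pax2 was low in every library. Among those that rose was Cdkn1b, which the E13.5 sorting reporter follows. The summed level of the 8 was 1977 to 2119 CPM (counts per 1000000 after library scaling) at E12.0 and 4603 to 4761 at E13.5. The mesenchymal markers summed to 1147 to 1280 CPM at E12.0 and 368 to 465 at E13.5, nearly all of it Lum, with Twist1, Prrx1 and Pou3f4 below 1 CPM in every library. The glial and neural crest markers summed to 1792 to 2102 CPM and 646 to 681, most of it Erbb3, which fell. Of the 4 tested, 2 rose, Cdh19 from few reads and Sox10 from 49.5 and 51.8 CPM to 181 and 202, so the sum and the members of this list moved differently. Foxd3 stayed below 1 CPM. The neuronal markers summed to 46.9 to 58.3 CPM and 23.7 to 26.1. Early hair cell markers summed to 50.7 to 52.3 CPM and 64.5 to 71.2. Of the 5 tested among them, Atoh1 and Myo7a rose and Espn fell. Endothelial, erythroid and immune markers summed to at most 12.2 CPM in a library, and melanocyte markers reached 27.9 CPM in E13.5 replicate 2. These differences run along the same contrast as every RNA result below, and their part in those results was not tested.

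RNA of the replication genes was lower at E13.5 for most members. Of the 45, 29 fell and 2 rose (edgeR quasi-likelihood test, Benjamini-Hochberg adjusted p threshold 0.05), and 14 were not called. Among all genes tested 23.5% fell and 22.4% rose, 45.9% in either direction, so the 64.4% of members that fell stand against 23.5%. Scaled to total counts, the split was 21 lower and 8 higher, where 15.6% of all genes were called lower and 36.3% higher. With limma on log2(TPM + 1), where TPM is transcripts per 1000000 and takes gene length into account, it was 21 lower and 10 higher, against 12.5% and 41.3% of all genes. The median log2 difference of the members, E13.5 minus E12.0, was -1.25, against 0.05 over all genes tested. The scale moved both medians together. All genes lay at 0.62 with total counts and at 0.76 on log2(TPM + 1), and the members' median minus that of all genes was -1.31 and -1.27, against -1.30 in the reported fit.

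**Figure D1:**
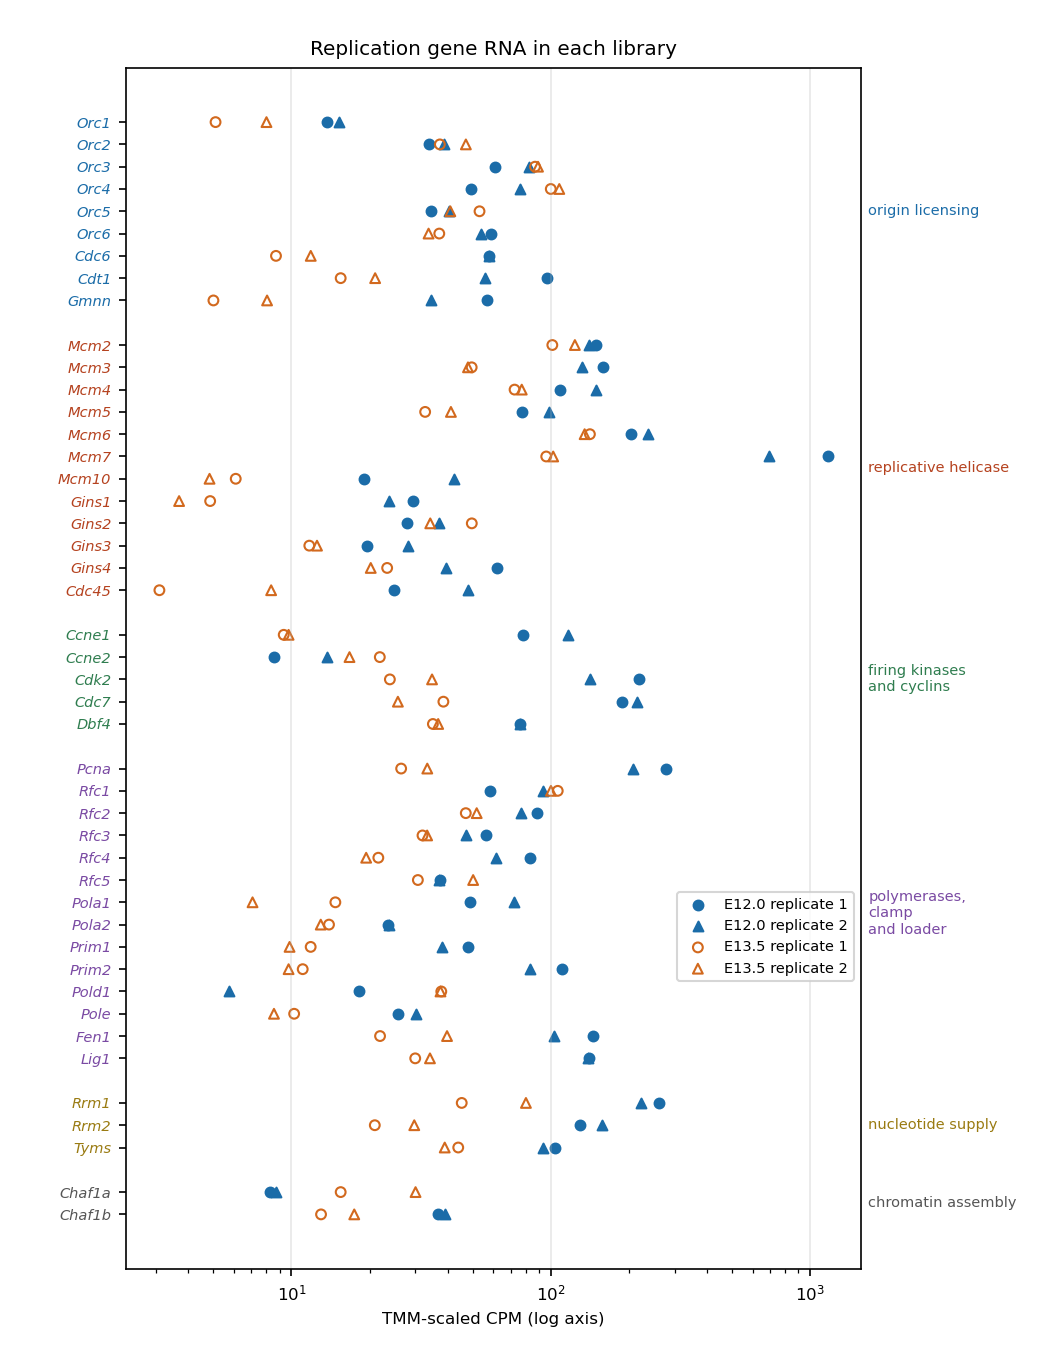
TMM-scaled CPM (log axis) of each of the 45 genes, in rows grouped by role, in the 4 RNA libraries; filled blue symbols are E12.0 and open orange symbols are E13.5, circles replicate 1 and triangles replicate 2. Both E13.5 libraries lie below both E12.0 libraries for 35 genes and above them for 7, and 3 overlap; scaled by TPM instead these counts are 24, 13 and 8.

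In TMM-scaled CPM (TMM is the library scaling of edgeR) both E13.5 libraries lay below both E12.0 libraries for 35 members, above them for 7, and the stages overlapped for 3. Over all genes tested the same separation was seen below for 36.1% and above for 39.3%. In TPM it was below for 24 members, 53.3%, against 19.9% of all genes. With 2 libraries against 2 the smallest p that an exact two-sided permutation test can give is 0.333, so the calls rest on the spread pooled over genes. In bulk RNA fewer cycling cells and less RNA per cell cannot be told apart. The members took 0.370% and 0.366% of all counts at E12.0, then 0.20% and 0.211% at E13.5. Without mitochondrial genes the shares were 0.448% and 0.424% against 0.205% and 0.214%, and with Mcm7 also left out 0.338% and 0.354% against 0.192% and 0.201%.

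The fall was uneven across roles. It was called for 3 of 9 licensing genes, 9 of 12 helicase genes, 4 of 5 firing genes, 9 of 14 polymerase, clamp and loader genes, 3 of 3 nucleotide supply genes and 1 of 2 chromatin assembly genes. The median log2 differences were -0.67, -1.23, -2.62, -1.69, -1.94 and 0.06 in that order. Of all genes tested 23.5% fell, and the licensing share, 33.3%, was the nearest to that. The smallest roles hold only 2, 3 and 5 genes. Before adjustment 37 of the 45 members had a p below 0.05, as did 53.5% of all genes tested.

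**Figure D2:**
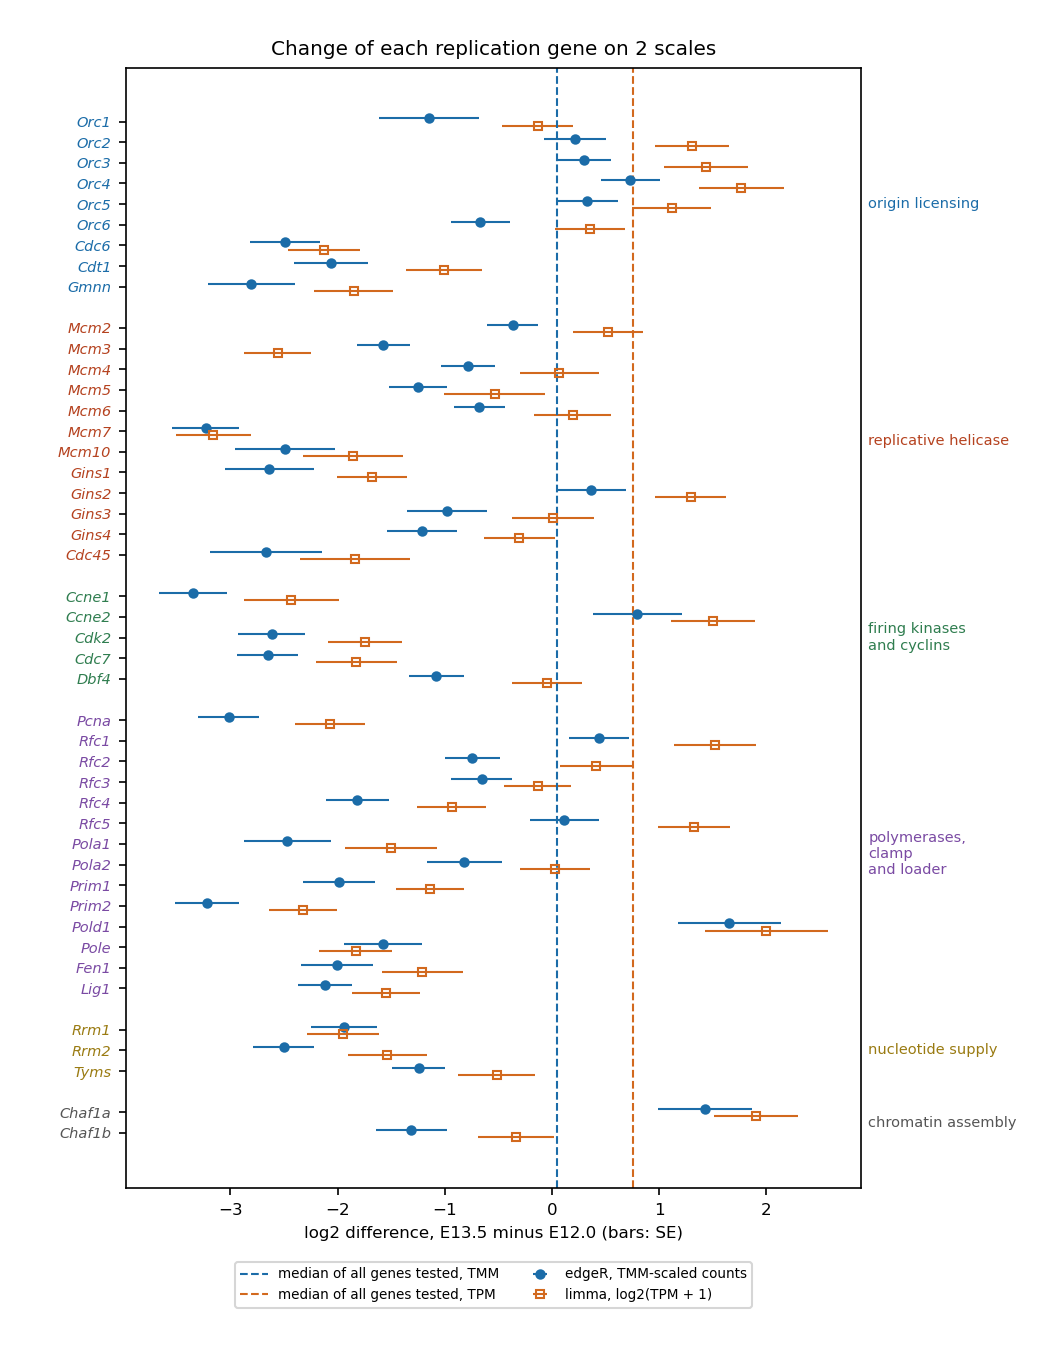
log2 difference, E13.5 minus E12.0, of each gene with its standard error, from edgeR on TMM-scaled counts (filled circles) and from limma on log2(TPM + 1) (open squares); dashed lines mark the medians of all genes tested, 0.05 and 0.76. Cdc6, Cdt1, Gmnn, Mcm3, Mcm7, Ccne1, Cdk2, Cdc7, Pcna and Prim2 lie below zero on both scales, while Orc6, Mcm2, Mcm4, Mcm6, Gins3, Rfc2 and Pola2 are below zero on the first and above it on the second.

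The promoters of 36 members were matched by symbol in RefSeq sequences of build GRCm38.p6, as windows from 250 bases before the start of transcription to 50 bases after it. Gmnn, Mcm4, Gins1, Gins2, Gins4, Ccne2, Rfc2, Prim2 and Pole had no entry. The letters TTTCCCGC, TTTGGCGC or TTTCGCGC, read on both strands as the E2F motif, were present in 13 of the 36 windows, 36.1%. Of 10042 windows of genes tested, 3.64% held them, and of all 17492 windows 2.49% did. The stretches below show these letters in capitals, with up to 10 bases on either side, 5′ to 3′ on the gene's strand. They come from the helicase ring, where 4 of 5 matched subunits hold a match, from a licensing gene and a kinase that fell, from the origin subunit Orc1, which was not called, and from Pold1, which rose. They were chosen after their values were seen. Distances are from the start that the RefSeq window uses, which is not always the end of the gene span used for the coordinates and peaks. It lies inside that span by 442 bases for Cdc6, 228 for Mcm7, 41 for Mcm5 and 3749 for Orc1, so the Cdc6, Mcm7 and Orc1 letters fall within the span.
Mcm3, 19 bases after the start: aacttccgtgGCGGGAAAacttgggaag
Mcm5, 153 bases before the start: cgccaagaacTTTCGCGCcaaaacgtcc
Mcm6, 110 bases before the start: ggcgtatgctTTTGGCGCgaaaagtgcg
Mcm7, 165 bases before the start: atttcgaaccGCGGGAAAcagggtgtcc
Cdc6, 138 bases before the start: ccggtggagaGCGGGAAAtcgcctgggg
Cdk2, 140 bases before the start: accaggaactGCGGGAAAgttgtgcagc
Orc1, 27 bases before the start: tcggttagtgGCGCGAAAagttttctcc
Pold1, 39 bases after the start: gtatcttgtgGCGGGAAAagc
The same letters thus stand in windows of genes with opposite changes. Of the 13 genes with a match 8 fell, 1 rose and 4 were not called, with a median log2 difference of -1.25. Of the 23 without a match 14 fell, 1 rose and 8 were not called, with a median of -1.31. A match is a description of the letters and not of binding.

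Other letters were nearer the background. The NF-Y letters CCAAT were in 58.3% of member windows against 39.2% of windows of genes tested, and overlapped an E2F match in 1 window. The Sp1 letters GGGCGG were in 75.0% against 66.2%. The Tead letters CATTCC were in 8.33% against 11.9%, and TTTGAA, found in cell cycle homology regions, in 16.7% against 11.5%. The median GC content was 61.8% in member windows and 61.3% in windows of genes tested.

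Licensing divided the loaders from the complex that marks origins. Cdt1, which brings the helicase ring to the origin, fell, and so did its inhibitor Gmnn and the loader Cdc6 (log2 -2.49 ± 0.32, SE), while none of the origin recognition genes Orc1 to Orc6 passed the test. No licensing gene rose in the edgeR test, and none rose with DESeq2. Before adjustment 6 of 9 had an edgeR p below 0.05 in either direction, as did 53.5% of all genes tested. Of these 6 only Orc4 had a positive difference. On log2(TPM + 1) with limma Orc2, Orc3, Orc4 and Orc5 were all called higher, and with total counts Orc3, Orc4 and Orc5 were.

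Cdt1 (chromosome 8, 122568015 to 122573130, GRCm38.p6) stood at 96.7 and 55.7 CPM at E12.0, then 15.5 and 21.0 at E13.5. Its mean went from 76.2 ± 29.0 to 18.3 ± 3.92 (SD, n = 2 libraries), a log2 difference of -2.06 ± 0.34 (SE, edgeR adjusted p = 0.000929). Gmnn (chromosome 13, 24751845 to 24761937) had 56.9 and 34.5 CPM at E12.0, then 5.0 and 8.05 at E13.5. Both genes were high in both E12.0 libraries, with no overlap between stages. The Gmnn difference of -2.80 ± 0.41 (SE, edgeR adjusted p = 0.000409) was the largest among the licensing genes.

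Orc1, the subunit whose protein is regulated through the cell cycle in mammalian cells, had 13.8 and 15.3 CPM at E12.0, then 5.10 and 8.01 at E13.5. The E13.5 libraries lay lower, but the difference of -1.15 ± 0.47 (SE) missed the threshold (edgeR adjusted p = 0.0674). It was called by DESeq2 (adjusted p = 0.0475). Orc6, the subunit least tightly held in the complex, had 58.7 and 53.9 CPM at E12.0, then 37.2 and 33.8 at E13.5, a difference of -0.67 ± 0.27 (SE, edgeR adjusted p = 0.0670) that turned to 0.35 on log2(TPM + 1). These are the only origin recognition subunits with a negative difference in the reported fit.

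Orc2 to Orc5 form the core of the complex together with Orc1. Orc2 had 33.8 and 38.8 CPM at E12.0, then 37.3 and 47.0 at E13.5, so the stages overlapped (0.22 ± 0.29, SE, edgeR adjusted p = 0.574). Orc3 had 61.1 and 82.5 CPM against 86.9 and 89.3 (0.29 ± 0.26, edgeR adjusted p = 0.375). Both Orc3 values at E13.5 were above both at E12.0, within a difference smaller than its error could resolve. Orc4 had 49.2 and 75.8 CPM against 99.97 and 108 (0.73 ± 0.28, edgeR adjusted p = 0.0516). Of the core subunits Orc4 came nearest the threshold, and it was called higher in 7 of 11 other settings. Orc5 had 34.5 and 40.4 CPM against 53.1 and 41.0 (0.33 ± 0.29, edgeR adjusted p = 0.380), with E13.5 replicate 2 close to the E12.0 libraries. The median of these 4 subunits was 0.31. Per length, the ratio of Orc1 to Orc2 TPM within a library was 0.548 and 0.456 at E12.0, then 0.160 and 0.187 at E13.5.

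The helicase ring held the largest change in level and also members that barely moved. Of Mcm2 to Mcm7, the subunits that each occupy 1 place in the ring, 5 fell and Mcm2 was not called, and in CPM all 6 had both E13.5 libraries below both E12.0 libraries. On log2(TPM + 1) Mcm2, Mcm4 and Mcm6 had positive differences of 0.52, 0.07 and 0.19, none called. Mcm3 and Mcm7 were lower on every scale.

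Mcm7 (chromosome 5, 138164583 to 138172111, minus strand) stood at 1168 and 695 CPM at E12.0, then 96.0 and 102 at E13.5. The mean went from 931 ± 334 to 99.1 ± 4.33 (SD, n = 2), 9.40-fold higher at E12.0, with a log2 difference of -3.23 ± 0.31 (SE, edgeR adjusted p = 3.73e-05). It made up 24.4% and 16.4% of all member counts at E12.0, then 5.91% and 5.84% at E13.5. The Mcm7 span overlaps the gene Ap4m1 and holds the microRNA genes Mir25, Mir93 and Mir106b, and whether the counting used strand is not stated in the labels.

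Mcm3 had 159 and 132 CPM at E12.0, then 49.5 and 47.9 at E13.5, a log2 difference of -1.58 ± 0.25 (SE, edgeR adjusted p = 0.000655). Mcm5 had 77.7 and 98.2 against 32.8 and 41.2 (-1.25 ± 0.27, edgeR adjusted p = 0.00413). Both subunits were clearly separated between stages in CPM, and Mcm5 overlapped in TPM. Mcm4 had 109 and 149 against 72.5 and 77.3 (-0.78 ± 0.26, edgeR adjusted p = 0.0287). Its call was lost when E12.0 replicate 2, E13.5 replicate 1 or E13.5 replicate 2 was left out (edgeR adjusted p = 0.190, 0.106 and 0.0678), at differences of -0.55, -0.73 and -0.83. Mcm6 had 204 and 238 against 142 and 135 (-0.68 ± 0.24, edgeR adjusted p = 0.0377), and kept its call in 2 of 11 other settings. Mcm2 had 149.8 and 141 against 101 and 124 (-0.37 ± 0.24, edgeR adjusted p = 0.234).

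In TPM, which sets genes on a common scale per length, the highest ring subunit stood further above the lowest at E12.0 than at E13.5. Mcm7 was highest in every library, at 1357 and 916 TPM at E12.0, then 134 and 115 at E13.5. The lowest was Mcm5 at 34.3 TPM in E12.0 replicate 1 and Mcm4 at 60.4 in E12.0 replicate 2. At E13.5 Mcm5 was lowest, at 38.6 and 37.9. The highest was 39.6 and 15.2 times the lowest at E12.0, and 3.47 and 3.03 times at E13.5. Mcm5 itself differed between the E12.0 libraries, at 34.3 and 90.4 TPM. Mcm3 was next to Mcm7 at E12.0, at 252 and 243 TPM. Without these, the ring came no closer together. Mcm2, Mcm4, Mcm5 and Mcm6 spanned 34.3 to 76.9 and 60.4 to 125 TPM at E12.0. At E13.5 they spanned 38.6 to 113 and 37.9 to 111.

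TPM depends on the gene length that each table gives, and these lengths moved too. The Mcm3 length was 843 and 900 bases at E12.0, then 2762 and 2826 at E13.5. The Mcm7 length was 1096 and 1202 against 1782 and 2124. Pole and Rrm1 were the other members whose lengths were at least 1.5 times shorter at E12.0 with no overlap, at 2053 and 2138 against 5040 and 4955, and at 1623 and 1847 against 2621 and 3316 bases. These 4 of 45 members compare with 4.67% of all genes tested. No member was longer at E12.0 by that rule, against 3.05% of all genes. A shorter length raises TPM at a given count, and its part in the spread of the ring was not tested. In CPM, which uses no length, Mcm7 was also the highest of the 6 at E12.0.

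**Figure D3:**
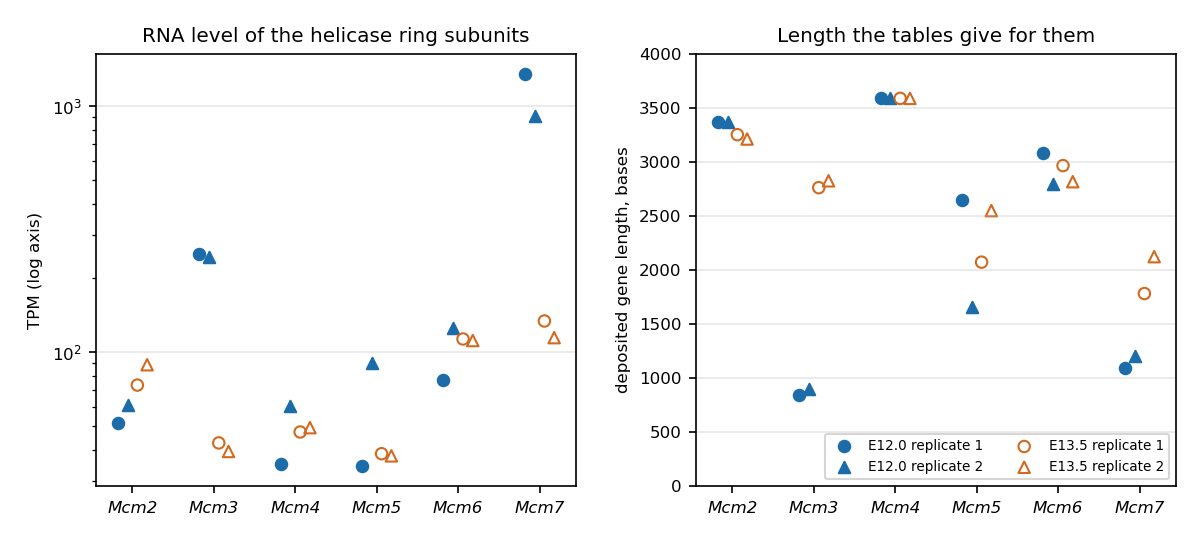
Left, TPM (log axis) of the ring subunits Mcm2 to Mcm7 in each RNA library; right, the gene length in bases that each library's table gives for them. Mcm7 falls from 1357 and 916 to 134 and 115 TPM, Mcm3 from 252 and 243 to 42.7 and 39.4, and both have shorter lengths at E12.0.

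The proteins that turn the ring into a running helicase were also divided. Cdc45 (-2.67 ± 0.53, SE), Gins1 (-2.64 ± 0.42), Mcm10 (-2.49 ± 0.46) and Gins4 (-1.22 ± 0.33) fell. Gins2 and Gins3, subunits of the same GINS complex, were not called. Gins2 had 27.8 and 37.2 CPM at E12.0, then 49.6 and 34.3 at E13.5, with overlapping stages (0.37 ± 0.32, edgeR adjusted p = 0.375), and was called higher on log2(TPM + 1) (1.29, limma adjusted p = 0.0131). Gins3 had 19.5 and 28.3 against 11.7 and 12.5 (-0.98 ± 0.38, edgeR adjusted p = 0.0547), and lay at 0.01 on log2(TPM + 1). Leaving out E12.0 replicate 1, or E13.5 replicate 2, ended the Gins4 call (edgeR adjusted p = 0.0890 and 0.0507, at -0.88 and -1.12).

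The kinases and cyclins that fire origins held the largest difference of all members. Cyclin E1, cyclin-dependent kinase 2 and Cdc7 each fell by more than 2 log2 units, and cyclin E2 was not called. Dbf4, the activating partner of Cdc7, fell less (-1.08 ± 0.26, SE). It was not called with total counts or on log2(TPM + 1), at -0.51 and -0.05. Ccne1 (chromosome 7, 38097984 to 38107490) had 78.4 and 116 CPM at E12.0, then 9.34 and 9.75 at E13.5. Its mean was 97.2 ± 26.6 against 9.54 ± 0.292 (SD, n = 2), 10.2-fold higher at E12.0, with a log2 difference of -3.35 ± 0.31 (SE, edgeR adjusted p = 3.18e-05). Ccne2 had 8.53 and 13.7 CPM at E12.0, then 21.9 and 16.7 at E13.5, so its E13.5 values were the higher ones (0.80 ± 0.41, edgeR adjusted p = 0.139). Ccne2 was called higher with total counts and on log2(TPM + 1). Cdk2, the kinase that both cyclins activate, had 218 and 142 CPM against 23.96 and 34.8 (-2.62 ± 0.31, edgeR adjusted p = 0.000130). Cdc7 changed by -2.65 ± 0.28 (SE).

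Ratios of TPM within a library do not depend on how libraries are scaled, but they use the lengths that each table gives. The ratio of Ccne1 to Ccne2 TPM was 14.3 and 16.9 at E12.0, then 0.751 and 0.935 at E13.5. Cyclin E1 RNA was thus the more abundant per length at E12.0 and slightly the less abundant at E13.5. Ccne2 overlaps the coding gene Ints8, and its counts were not whole, so reads shared with other genes may have been split. The ratio of Cdc7 to Dbf4 was 2.15 and 2.34 against 0.790 and 0.512. Cdt1 over Gmnn, loader over inhibitor, was 0.690 and 0.670 at E12.0, then 1.30 and 1.18 at E13.5. Both genes fell, and Gmnn fell more, so per length Cdt1 RNA passed that of its inhibitor. In counts Cdt1 was above Gmnn in every library, by a ratio of 1.70 and 1.61 at E12.0, then 3.10 and 2.61. None of these ratios overlapped between stages, and with 2 libraries against 2 no single ratio can pass an exact test.

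**Figure D4:**
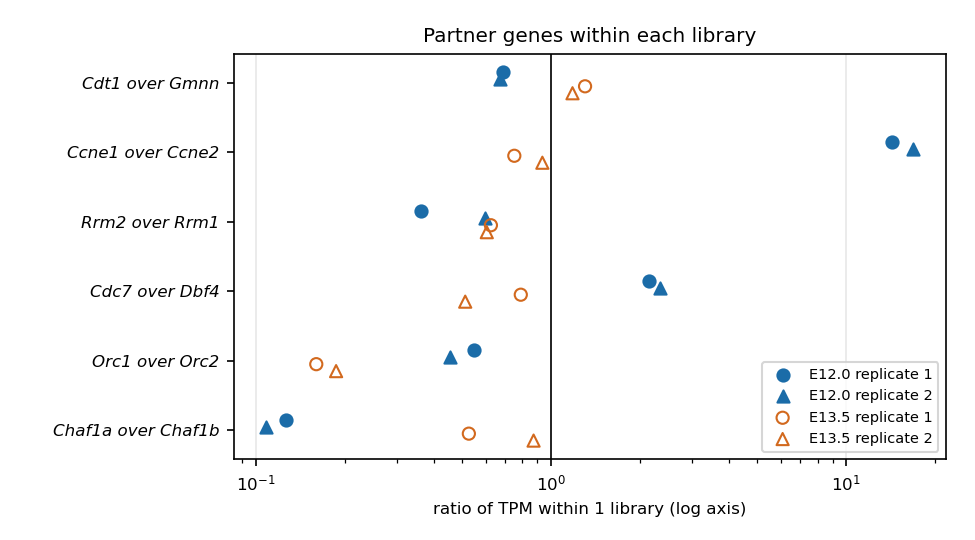
Ratio of the TPM of partner genes within each RNA library (log axis, line at equal TPM); filled symbols are E12.0 and open symbols E13.5. Ccne1 over Ccne2 and Cdc7 over Dbf4 are above 1 at E12.0 and below it at E13.5, Cdt1 over Gmnn is the reverse, and Rrm2 over Rrm1 overlaps.

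Among the fork enzymes the sliding clamp and the primase large subunit changed most. Pcna (chromosome 2, 132249286 to 132253180) had 279 and 207 CPM at E12.0, then 26.5 and 33.4 at E13.5. Its mean was 243 ± 51.0 against 29.9 ± 4.89 (SD, n = 2), a log2 difference of -3.02 ± 0.28 (SE, edgeR adjusted p = 3.02e-05). Prim2, the large subunit of the primase, had 110.7 and 83.1 CPM against 11.0 and 9.75 (-3.22 ± 0.30, edgeR adjusted p = 3.13e-05). The E13.5 libraries were low and close together for both genes.

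Of the primase and polymerase alpha complex, which starts each new strand, Prim1 (-1.98 ± 0.34, SE) and the catalytic subunit Pola1 (-2.47 ± 0.41) fell as well. The regulatory subunit Pola2 had 23.7 and 23.8 CPM at E12.0, then 14.0 and 12.97 at E13.5 (-0.82 ± 0.35, edgeR adjusted p = 0.0813), with a difference of 0.03 on log2(TPM + 1). The leading-strand polymerase Pole changed by -1.57 ± 0.37 (SE), the flap nuclease Fen1 by -2.01 ± 0.34, and DNA ligase Lig1 by -2.12 ± 0.25, and all 3 were called lower.

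Of the 5 subunits of the clamp loader, Rfc4 (-1.82 ± 0.29, SE) and Rfc2 (-0.74 ± 0.25) fell, and Rfc2 lay at 0.41 on log2(TPM + 1) and kept its call in 2 of 11 other settings. Rfc1, the large subunit, had 58.3 and 93.7 CPM at E12.0, then 106 and 100.1 at E13.5 (0.44 ± 0.28, edgeR adjusted p = 0.222). Rfc3 had 56.1 and 47.0 against 32.0 and 33.4 (-0.66 ± 0.28, edgeR adjusted p = 0.0794). Rfc5 had 37.6 and 37.2 against 30.7 and 50.2, with E13.5 values on both sides of the E12.0 values (0.11 ± 0.32, edgeR adjusted p = 0.793). On log2(TPM + 1) Rfc1 and Rfc5 were called higher (1.52 and 1.32, limma adjusted p = 0.0123 and 0.0132). The loader was thus mixed, with calls for 2 of 5 subunits.

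Pold1, the catalytic subunit of polymerase delta (chromosome 7, 44532744 to 44548815), was the only one of the 14 polymerase, clamp and loader members that rose. It had 18.3 and 5.77 CPM at E12.0, then 37.8 and 37.6 at E13.5, a log2 difference of 1.65 ± 0.48 (SE, edgeR adjusted p = 0.0173). Its E12.0 libraries lay far apart from each other, and the deposited length was 1370 bases in the first and 2253 in the second. Without E12.0 replicate 2 the difference was 1.04 and the call was lost (edgeR adjusted p = 0.0578). It was also lost on log2(TPM + 1) centred on each library's median (limma adjusted p = 0.151).

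All 3 genes that supply deoxynucleotides fell. Rrm2, the small subunit of ribonucleotide reductase and the subunit that is known to cycle, had 129.7 and 158 CPM at E12.0, then 21.0 and 29.8 at E13.5 (-2.50 ± 0.28, SE, edgeR adjusted p = 9.78e-05). Rrm1, the large subunit, changed by -1.94 ± 0.31 (SE). The ratio of Rrm2 to Rrm1 TPM overlapped between stages. Tyms, thymidylate synthase, had 104 and 93.1 CPM against 44.0 and 39.0 (-1.25 ± 0.25, edgeR adjusted p = 0.00271), and was not called with total counts or on log2(TPM + 1) (-0.67 and -0.52).

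In the reported fit the subunits of chromatin assembly factor 1 moved in opposite directions. Chaf1a, the large subunit, had 8.25 and 8.71 CPM at E12.0, then 15.5 and 30.1 at E13.5 (1.42 ± 0.44, SE, edgeR adjusted p = 0.0225). Chaf1b, the middle subunit, had 36.6 and 39.2 CPM against 13.003 and 17.5 (-1.31 ± 0.33, edgeR adjusted p = 0.00875). Chaf1b was not called with total counts or on log2(TPM + 1), at -0.75 and -0.33, and its stages overlapped in TPM. The ratio of Chaf1a to Chaf1b TPM was 0.127 and 0.109 at E12.0, then 0.527 and 0.873 at E13.5, so the RNA of the pair came closer to equal. The Chaf1a call was lost without E12.0 replicate 1, E12.0 replicate 2 or E13.5 replicate 2 (edgeR adjusted p = 0.0764, 0.0648 and 0.240), at differences of 1.36, 1.46 and 0.86. Chaf1a overlaps another coding gene, and its counts were not whole, so reads shared with other genes may have been split.

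For 21 members the fall was called in the reported fit and in all 11 other settings, against 9.72% of the genes tested in all of them. In 4 of the 11 a stage is left with 1 library, which is assumed to vary like the 2 of the other stage. They are Cdc6, Cdt1 and Gmnn among the licensing genes, Mcm3, Mcm7, Mcm10, Gins1 and Cdc45 of the helicase, and Ccne1, Cdk2 and Cdc7 of the firing genes. At the fork they are Pcna, Rfc4, Pola1, Prim1, Prim2, Pole, Fen1 and Lig1, with Rrm1 and Rrm2 for nucleotide supply. No member was called higher in all 12 fits, although 9 had a positive difference in the reported fit and all 11 others: Orc2, Orc3, Orc4, Orc5, Gins2, Ccne2, Rfc1, Pold1 and Chaf1a.

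A further 37 replication genes outside the 45 were listed, among them accessory polymerase subunits, the RPA complex that coats exposed strands, fork protection factors and enzymes of thymidine supply. Of these 13 fell, 5 rose and 19 were not called, with a median log2 difference of -0.59. In the same fit 23.5% of all genes tested fell and 22.4% rose. A larger share of this list than of all genes thus fell, and a smaller share rose. On log2(TPM + 1) 7 fell and 9 rose, where 12.5% of all genes fell and 41.3% rose. The largest falls were those of Dut, the dUTP pyrophosphatase, from 219.8 and 123 CPM to 31.1 and 28.3 (-2.53 ± 0.32, SE), and of Mcm8, a helicase of repair, from 29.6 and 46.0 CPM to 7.29 and 7.46 (-2.36 ± 0.37). Recql4, Slbp and Mcm9 had the smallest differences, at -0.01, -0.08 and -0.18, and were not called.

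The 5 that rose were Pold2, Pold4, Rpa1, Rnaseh2a and Chtf18. Pold2 and Pold4 are accessory subunits of polymerase delta, like the catalytic Pold1. Pold2 went from 9.22 and 6.24 CPM to 21.8 and 39.3 (1.98 ± 0.43, SE, edgeR adjusted p = 0.00399). Pold4 went from 0.963 and 0.706 CPM to 3.33 and 4.96, from few reads (2.31 ± 0.77, edgeR adjusted p = 0.0319). Pold3, the remaining subunit, named here after its value was seen, fell by 1.44 on the log2 scale (SE 0.25, edgeR adjusted p = 0.00114). Rnaseh2a, the catalytic subunit of RNase H2, rose by 1.63 ± 0.43, Chtf18, of an alternative clamp loader, by 1.28 ± 0.45, and Rpa1, the large RPA subunit, by 0.85 ± 0.27 (SE). When 1 library was left out, not all of these calls held, and a smaller share of all genes was called higher as well.

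Open chromatin was called at the ends of equally many of these genes at both stages. An ATAC region held by all 3 libraries lay within 1000 bp of a gene end for 41 of 45 members at E12.0 and for the same number at E13.5. Of protein-coding genes tested for RNA, 88.5% had such a region at the earlier stage and 92.2% at the later, and the members' 91.1% is near both. Orc1, Orc4, Rfc1 and Lig1 had none. For Orc1, Orc4 and Rfc1 the RefSeq promoter window lies away from the span's end and was overlapped by an ATAC region of every library. At the upstream end of the gene span, for the 36 members with a strand, a peak was present in 32 in each of the 6 ATAC libraries. For these 32 the strongest such peak was ranked within each list by fold over local background, as the authors' peak lists give it. The median stood at percentile 93.3 to 96.2. Starts of other genes were not ranked, so whether this differs from them was not tested. Counting only the upstream end of these 36 spans, ATAC regions held by every library marked 32 at either stage (87.2% and 90.6% of coding genes tested). Such H3K27ac regions marked 14 and 10 (37.0% and 21.9%), and Tead regions 3 (4.44%). No member had an ATAC region at an end called at E12.0 only or at E13.5 only, against 0.0561% and 3.63% of coding genes tested.

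**Figure D5:**
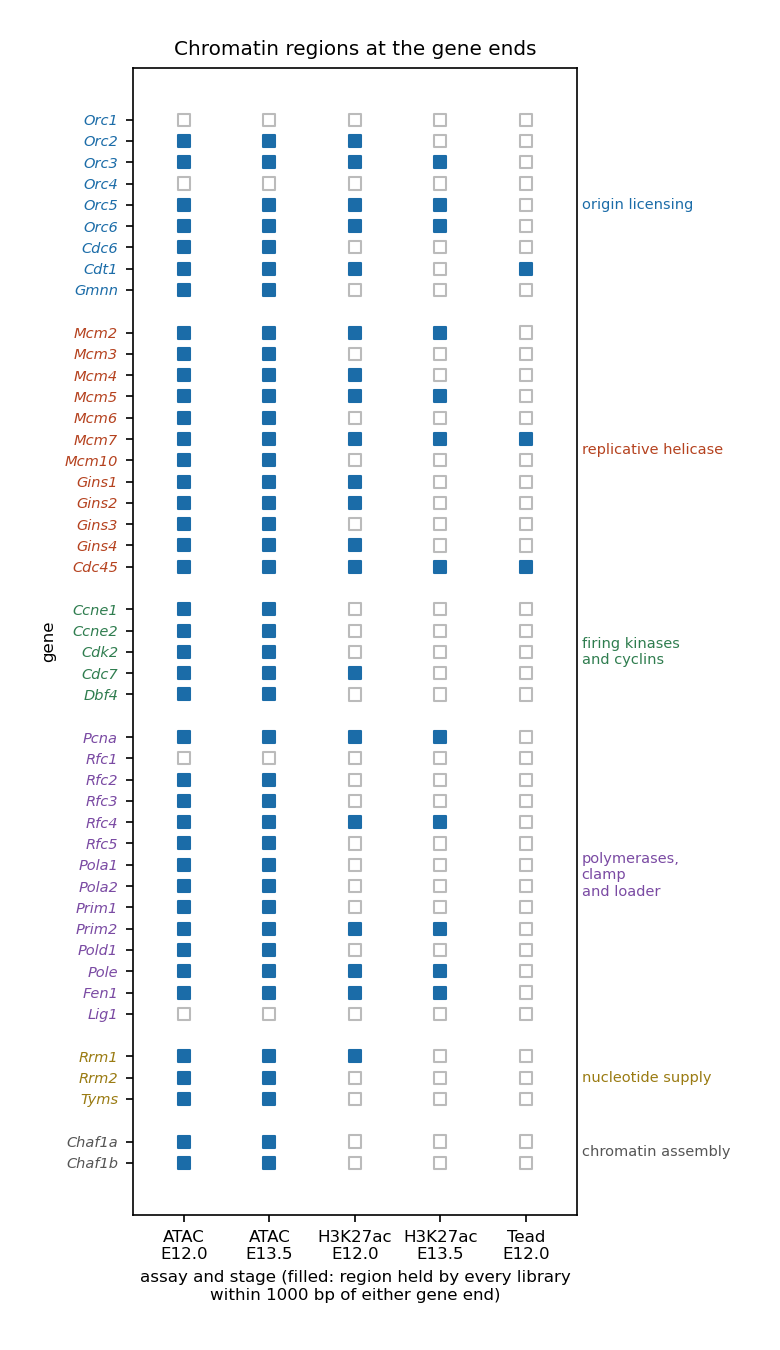
For each gene (rows, by role), filled squares mark an ATAC, H3K27ac or Tead region that every library of the stage holds within 1000 bp of either gene end, and open squares mark none. The filled counts are 41 and 41 for ATAC, 20 and 12 for H3K27ac and 3 for Tead, against 88.5%, 92.2%, 38.2%, 22.7% and 4.87% of coding genes tested.

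H3K27ac, a mark of active promoters and enhancers, was held by every library at an end of 20 of 45 members at E12.0 and 12 at E13.5. The backgrounds were 38.2% and 22.7% of coding genes tested, so with all peaks these shares of 44.4% and 26.7% are near them. With stronger peaks only, the members stood further above the background. At −log10 q of at least 2 they were 14 and 10 of 45, against 21.3% and 11.5%. At 5 or more they were 9 and 4 of 45, against 6.34% and 1.15%. With all peaks, the number of members depended on 1 library at each stage. Without E12.0 replicate 2 it was 31, where 65.6% of coding genes tested had such a region, and without E12.0 replicate 1 it was 24 (44.9%). Without E13.5 replicate 2 it was 38 (78.7%), and without E13.5 replicate 1 it was 13 (26.8%). Per the labels, E12.0 replicate 1 was made with the KAPA HTP kit and the other H3K27ac libraries with an Accel 2S kit, and the part of the kit was not tested.

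Cdc7 was the only member with a region called at 1 stage, H3K27ac at E12.0, against 0.865% of coding genes tested, and none had one at E13.5 only (1.26% of those genes). The E12.0 peaks were weak, at 2.23 and 2.96 over local background with −log10 q of 1.0 and 1.08. E13.5 replicate 1 had a taller H3K27ac peak at 106964351 to 106964641, at a fold of 5.56, just downstream of the E12.0 region, and E13.5 replicate 2 had none at the start. The Cdc7 promoter is printed with the Tead letters in capitals, for the bases that lie in no annotated gene (chr5:106964072-106964314, plus strand).
Cdc7: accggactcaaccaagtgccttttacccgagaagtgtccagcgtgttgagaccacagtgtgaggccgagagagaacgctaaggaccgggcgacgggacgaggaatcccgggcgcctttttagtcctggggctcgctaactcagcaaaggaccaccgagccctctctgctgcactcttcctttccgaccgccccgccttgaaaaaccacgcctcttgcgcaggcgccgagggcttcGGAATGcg
These letters stand 15 bases before the window's start, and a Tead peak near the start was present in replicate 2 only, at a fold of 2.05.

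Tead, measured at E12.0 only, was held by both libraries at an end of 3 of 45 members, Mcm7, Cdc45 and Cdt1. This 6.7% is near the 4.87% of coding genes tested. The lists of the libraries differ in size, with 18250 peaks in replicate 1, made with the KAPA HTP kit, and 58410 in replicate 2, made with an Accel 2S kit. Without replicate 1 the number of members was 31, against 56.5% of coding genes tested, and without replicate 2 it was 5, against 7.84%.

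At Cdc45, whose window lies wholly within the neighbouring gene Ufd1, the Tead peak had a fold of 3.41 in replicate 1 and 5.16 in replicate 2, with −log10 q of 3.17 and 33.96. At Mcm7 the folds were 2.72 and 4.43 with −log10 q of 1.11 and 31.0, so replicate 1 gave a weak peak there. At Cdt1 they were 3.18 and 2.98 with −log10 q of 2.13 and 7.01, and the peaks cover the bases before the start. All 3 genes were open in every ATAC library at both stages, as were 41 of 45 members. All 3 fell in RNA, as did 29 of 45 members, and a link with Tead was not tested. Tead was not measured at E13.5, so no stage comparison exists.

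The promoters of Cdt1, with Tead, ATAC and H3K27ac at E12.0, and of Pcna, with ATAC and H3K27ac but Tead in replicate 2 only, are shown for the bases outside any annotated gene. They are Cdt1 at chr8:122567765-122568014 on the plus strand and Pcna at chr2:132253181-132253337 on the minus strand, with E2F, NF-Y or Tead letters in capitals.
Cdt1: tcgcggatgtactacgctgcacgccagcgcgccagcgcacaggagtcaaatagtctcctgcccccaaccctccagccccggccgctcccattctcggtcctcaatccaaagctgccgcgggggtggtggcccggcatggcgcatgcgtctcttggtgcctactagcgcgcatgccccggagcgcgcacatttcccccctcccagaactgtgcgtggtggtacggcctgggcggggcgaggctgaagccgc
Pcna: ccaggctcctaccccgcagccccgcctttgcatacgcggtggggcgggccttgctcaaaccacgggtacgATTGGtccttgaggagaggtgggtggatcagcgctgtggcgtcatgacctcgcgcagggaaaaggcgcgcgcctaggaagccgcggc
The Cdt1 stretch holds none of these letters, and the Tead peaks of both libraries overlap it. Its window is 1 of the 13 with E2F letters, TTTGGCGC, which stand 32 bases after the start and so beyond the printed bases. The Pcna stretch holds the NF-Y letters once, 87 bases before the start.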

How the data were processed

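RNA, ATAC and CUT&RUN files of 16 libraries were used, grouped by the sample titles. The RNA tables hold expected counts (estimated reads, not always whole), beside a length and an effective length, per the file headers, from poly(A) RNA per the labels' protocols. For the counting, tool and strand setting are not given in the sources used here. Peak lists were deposited per library, without pooling, each peak with a fold (ratio over local background) and −log10 p and q that the authors computed within that library. The smallest −log10 p in a list was 2.00 to 2.51, and these values were used only to rank or filter peaks. STAR, MACS2, UMI-tools, mm10 and GRCm38 appear in the submitters' processing notes, without versions.

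Expected counts were rounded, kept by filterByExpr (15982 of 48709 genes), scaled by TMM and then compared by the quasi-likelihood F test of edgeR 4.0.16 (two-sided, 2 libraries against 2, no covariate, Benjamini-Hochberg over all genes tested) in R 4.3.3. At these depths 10 reads are 0.424 to 1.38 CPM. Symbols were matched for 48349 identifiers. TPM was computed from expected counts and effective lengths. Alternatives were DESeq2 1.42.0, limma 3.58.1 on log2(TPM + 1), total counts, other filters, a replicate block and leaving out each library; centring log2(TPM + 1) on each library's median was added after seeing the data. The edgeR step was tested on simulated counts and the interval functions on made-up intervals. Counts of replicates were further apart than sampling gives (chi-square over its degrees of freedom 29.7 for the E12.0 pair, 46.7 for the E13.5 pair), and each library counts once. The spans of 12 members overlap another coding gene, and 17 have a count in some library that is not whole (tolerance 0.005), so reads may be shared there.

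Peaks of an assay were merged over libraries, and a library holds a region that one of its peaks overlaps by at least 1 bp. Gene spans came from RefSeq (GRCm38.p6). The motif search used exact letters on both strands of the promoter windows, the window nearest the end of the gene span for the 6 members with several. The members, lists, roles, tests and naming rule were chosen with earlier results of these data known. All members are named with their log2 difference. Library values are given for the largest and smallest difference in each role, every member that rose or was not called, Mcm2 to Mcm7 and a few fixed genes. Of the other replication genes the 3 largest, the 3 smallest and all that rose are named. Of up to 6 promoters chosen by their marks, bases inside an annotated gene are not printed.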

Additional observations from a re-analysis of the deposited data

How the results depend on the processing

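With total counts 8 members and 9 of the other replication genes were called higher, where 36.3% of all genes were. The members' median was -0.69. On log2(TPM + 1) 10 members and 9 of the others were called higher, against 41.3% of all genes. Of the others 7 were called lower, against 12.5% of all genes, and the members' median was -0.52. Single differences that changed sign on log2(TPM + 1) were those of Orc6 (0.35), Mcm2 (0.52), Mcm4 (0.070), Mcm6 (0.19), Gins3 (0.0089), Rfc2 (0.41) and Pola2 (0.028). Mcm2 lay at 0.21 with total counts, and Rfc5 was -0.29 to 0.43 with 1 library left out, negative only without E13.5 replicate 2, and 1.32 on log2(TPM + 1). These scales place the median of all genes at 0.62 and 0.76, against 0.05 in the reported fit. Leaving out 1 RNA library gave a members' median of -1.45 to -1.32, where the median of all genes was 0.02 to 0.23. With peaks of −log10 q of at least 5, H3K27ac marked 9 of 45 members at E12.0 and 4 of 45 at E13.5, and Tead marked 0. The shares of coding genes tested were 6.34%, 1.15% and 0.36%. Leaving out 1 library gave 24 to 31 members with H3K27ac at E12.0, 13 to 38 at E13.5, 5 to 31 with Tead and 41 with ATAC at either stage. For these changes the cause was not tested. Replicate numbers are shared across stages. Deviations of replicate 1 correlated at 0.00816 between stages, a value that cannot tell whether libraries were paired. With the replicate number as a block 27 members fell and 3 rose, where 23.1% of all genes fell and 21.5% rose. The members' median was then -1.25. Of 97 values for the counts and medians under other settings, 75 stayed within the limits set for no change.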

Other observations

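Per length, the origin recognition complex and the helicase ring moved opposite ways in the ratio of their highest to their lowest subunit. In the ring Mcm7 and Mcm3 stood apart at E12.0, and the other subunits came no closer together at E13.5. Within a library the highest of Orc1 to Orc6 had 9.58 and 9.41 times the TPM of the lowest at E12.0, and 31.1 and 24.7 times at E13.5. Orc1 was the lowest in all 4 libraries, and the highest changed from Orc6 to Orc4. For the clamp loader Rfc1 to Rfc5 the same ratio was 5.57 and 5.05 at E12.0, then 2.43 and 2.46 at E13.5. For primase and polymerase alpha it overlapped between stages, at 5.91 and 4.32 against 2.48 and 4.70, and for Gins1 to Gins4 it was 6.25 and 3.13 against 4.01 and 4.31.

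The median TPM of the firing genes was 48.9 and 92.4 at E12.0, then 25.2 and 20.4 at E13.5, and that of the nucleotide supply genes 73.7 and 119 against 41.4 and 55.6. The medians of the licensing genes (33.5 and 47.1 against 32.6 and 36.9) and of the helicase genes (35.1 and 53.1 against 40.7 and 38.5) overlapped between stages. These are descriptions of 2 libraries a stage.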
